A study of Mus musculus with 4 samples.

Results

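The genes described here encode the proteins that build the meiotic chromosome axis and carry out homologous recombination in spermatocytes. They were chosen by name, as 32 genes, with earlier results of these data known, and no value entered the rule. Of these, 30 were listed by their symbols among the 22311 genes of the deposited tables, and Syce3 and Rnf212 were not listed under those symbols. RNA was sequenced from the total testicular cells of 24-day-old male mice, 2 samples from Rfx2-/- mutants and 2 from controls. RFX2 is a transcription factor that binds the X-box motif, and the mutant allele lacks the exons for its DNA-binding domain, which a neomycin-resistance cassette under the phosphoglycerate kinase promoter replaced. The allele came from 1 embryonic stem cell clone and is a conventional knockout, so every cell of the mouse carried it. By the labels, control mice were wild type and the strain was DBA. By the text of the study, control mice used for sequencing were heterozygous for the mutation, on a background mixed from 129/s6 and C57BL/6. As the study describes it, large-scale shedding of round spermatids from the mutant tubules came after this age. Flagella already failed to assemble at this age. In younger mutants the study found more apoptosis than in wild type, and some of them were delayed, with fewer round spermatids.

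In meiotic prophase, each pair of replicated sister chromatids is held by cohesin and folded into loops along a protein axis. The topoisomerase-like SPO11 cuts the DNA, the broken ends are resected and invade the homologous chromosome, and the axes are zipped together by the synaptonemal complex while a few of the joined sites mature into crossovers. In the mouse, spermatocytes pass through these steps before they divide into round spermatids, and loss of many of these genes arrests them in mid prophase.

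The expression unit was FPKM, the fragments of a gene scaled to its length and to the mapped fragments of the sample, as the authors estimated it with Cufflinks, which allows levels of genes of different length to be set side by side. The width of the Cufflinks confidence intervals corresponded to between 17.2 and 20.4 M fragments per sample. Each interval belongs to a single sample and does not cover differences between samples. Rfx2 itself stood at 36.7 FPKM in mutant 1 and 39.8 in mutant 2, and at 123 in control 1 and 89.4 in control 2 (log2 fold change -1.43 ± 0.19, SE, with a Benjamini-Hochberg adjusted p of 0.00617 from limma). The targeted gene thus followed the labels in every sample. Samples also differed on genes outside the meiotic set. Leydig cell markers summed to 153 FPKM in control 2, against 255 in mutant 2, 403 in control 1 and 471 in mutant 1. Mutant 1 stood apart on markers of elongating spermatids. The study saw no elongating spermatids in mutant testes at a later age, so these markers describe RNA and do not count such cells. The summed FPKM of 8 elongating spermatid markers was 1026 in mutant 1, against 5821 in mutant 2, 7521 in control 1 and 5033 in control 2. Counts and medians over the meiotic genes are therefore also given without mutant 1.

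Because RFX2 is known to bind X-boxes, the promoters of the meiotic genes were read from RefSeq (GRCm38.p6, 250 bases before to 50 bases after the transcription start, given on the strand of the gene). A promoter was found for 29 of the 32 genes, with none for Spo11, Tex11 and Tex15. No promoter of these 29 held an X-box without mismatch, on either strand, and 1.75% of all 27025 genes with a promoter and 2.44% of those among the genes tested below did. With 1 mismatch allowed, the count was 2 of 29 (6.9%), against 12.7% of all genes and 15.2% of the genes tested. These were Smc1b and Psmc3ip, whose promoters are shown because they came nearest to the motif of the missing factor. Capitals mark the X-box with 1 mismatch and, in Smc1b, also the complement of GCGGGAA.
Smc1b promoter (chr15:85131908-85132207, minus strand): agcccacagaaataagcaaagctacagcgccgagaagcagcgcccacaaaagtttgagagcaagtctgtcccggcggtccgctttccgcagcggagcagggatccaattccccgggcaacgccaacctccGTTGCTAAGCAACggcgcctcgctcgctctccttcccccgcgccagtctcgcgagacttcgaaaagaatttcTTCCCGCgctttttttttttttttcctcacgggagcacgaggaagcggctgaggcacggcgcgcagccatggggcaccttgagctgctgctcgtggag
Psmc3ip promoter (chr11:101095386-101095685, minus strand): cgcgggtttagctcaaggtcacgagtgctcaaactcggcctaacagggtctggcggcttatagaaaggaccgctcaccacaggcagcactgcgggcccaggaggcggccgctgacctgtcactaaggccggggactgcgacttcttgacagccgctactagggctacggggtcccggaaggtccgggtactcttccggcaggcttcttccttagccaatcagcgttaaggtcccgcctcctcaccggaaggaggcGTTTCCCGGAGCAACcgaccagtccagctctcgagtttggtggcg
In Smc1b the match ran from base -120 to base -108 relative to the start, and in Psmc3ip it lay behind the start, from base 6 to base 20. A match describes the letters only and is no measurement of binding. The study searched a wider region around the start and scored matches with a weight matrix. Sites that such a search would find can lie outside these windows or depart from the motif used here.

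Other short motifs were searched on both strands in the same windows. GCGGGAA, the core of the sites bound by E2F factors, was found in 11 of 29 promoters (37.9%), against 5.29% of all genes and 9.73% of the genes tested. CACGTG, the E-box of factors such as MAX, was found in 7 of 29 (24.1%), against 8.09% and 11.7%. TGACGTCA, the cAMP response element, was found in 1 of 29, that of Brca2, against 2.03% and 3.7%. CACGTG and TGACGTCA are palindromes, so a site on one strand is the same site on the other, and no match overlapped another. The median GC content of the windows was 60.7% for the meiotic genes and 60.3% for the genes tested. Sycp3 and Hormad1 are shown because both held GCGGGAA once and CACGTG at 2 places, all in capitals, with Hormad1 at the upstream one of its 2 annotated starts.
Sycp3 promoter (chr10:88459337-88459636, plus strand): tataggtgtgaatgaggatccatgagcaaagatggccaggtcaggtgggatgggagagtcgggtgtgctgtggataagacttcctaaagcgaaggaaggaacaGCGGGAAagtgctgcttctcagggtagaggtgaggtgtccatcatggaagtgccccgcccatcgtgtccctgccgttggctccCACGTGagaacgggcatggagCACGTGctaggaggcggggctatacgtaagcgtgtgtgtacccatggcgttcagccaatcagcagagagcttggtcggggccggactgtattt
Hormad1 promoter (chr3:95559427-95559726, plus strand): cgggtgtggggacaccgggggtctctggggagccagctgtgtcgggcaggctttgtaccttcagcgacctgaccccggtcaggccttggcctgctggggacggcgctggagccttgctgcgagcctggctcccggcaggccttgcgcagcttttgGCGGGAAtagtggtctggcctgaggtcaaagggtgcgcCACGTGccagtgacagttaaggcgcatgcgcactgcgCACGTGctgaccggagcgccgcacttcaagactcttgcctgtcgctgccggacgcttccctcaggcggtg
In Sycp3 the GCGGGAA ran from base -147 to -141 and the E-boxes began at -64 and -43. In Hormad1 the same letters began at -95, with E-boxes at -57 and -20.

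The question put to these genes was whether their RNA level differed between mutant and control testes. It did not pass the test for any of them. The test was limma on log2(FPKM + 1), run on the 12985 genes that reached an FPKM of 1 in 2 or more samples, and 29 of the 30 listed genes passed this filter. None of the 29 was called lower or higher at an adjusted p under 0.05 (Benjamini-Hochberg over all 12985 genes), while 367 of all genes tested were called, which is 2.83%. By direction, 0 of 29 were lower, against 2.52% of all genes, and 0 of 29 were higher, against 0.308%. At an unadjusted p under 0.05 the count was also 0 of 29, against 8.69% of all genes, and limma-voom on the fragment numbers behind the confidence intervals called 0 as well. Without mutant 1 limma still called 0 of 29, and 2 genes, Syce2 and Spo11, had an unadjusted p under 0.05, against 9.43% of all genes. With so small a share of all genes called, a count of 0 among 29 is near the background.

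The size of the differences was limited more closely than the calls. The 95% interval of the log2 fold change lay inside a 2-fold change in either direction for 29 of 29 genes, against 87% of all genes tested. The lowest bound was -0.89, for Tex15, and the highest was 0.87, for Dmc1. The pseudocount of 1 understates changes of low genes. With a pseudocount of 0.1 the count of such intervals was 27, with 0.01 it was 26, and with median-ratio scaling 28. This count was 22 with limma-voom, 20 without control 2, 27 without control 1, 28 without mutant 1 (84.5% of all genes) and 27 without mutant 2. The share of all genes was computed for the main fit and the fit without mutant 1 only, so the other counts have no background beside them. The log2 fold change was above 0 for 23 genes and below 0 for 6, and above 0 for 57.3% of all genes. Without mutant 1 it was above 0 for 14 and below 0 for 15, and above 0 for 44.2% of all genes. The median was 0.11, beside 0.03 over all genes tested. That median rested on single samples, and was -0.01 without mutant 1, -0.01 without control 1, 0.24 without mutant 2 and 0.26 without control 2. The mutant values were both under both control values for 2 genes, Stag3 and Tex15, against 15.2% of all genes, and above them for 6 genes, Syce1, Trip13, Smc1b, Psmc3ip, Mnd1 and Msh5, against 16.3%. Mutant 2 alone was below both controls for 4 genes and above both for 8, against 32.5% and 26.2% of all genes. In bulk RNA of whole testes, fewer cells of a type and less RNA per cell cannot be told apart.

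**Figure D1:**
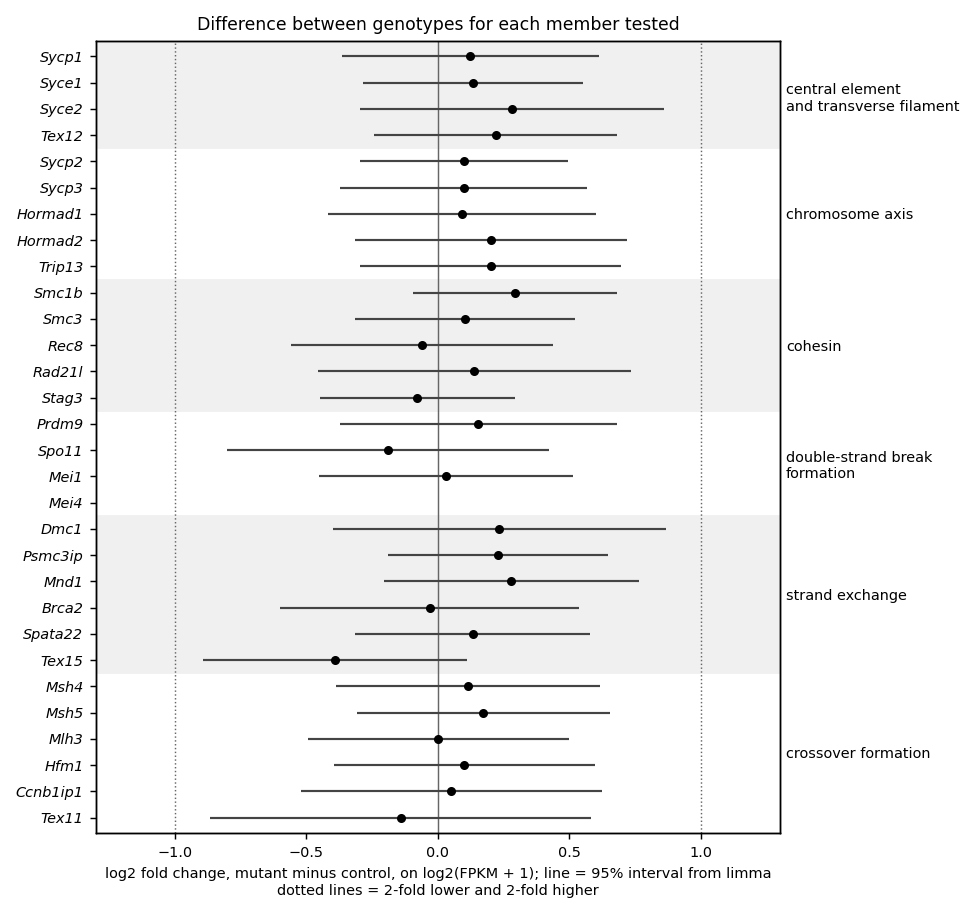
Log2 fold change of each gene tested, mutant minus control on log2(FPKM + 1), on the horizontal axis, with genes grouped by role on the vertical axis. Points are limma estimates from 2 samples per genotype and lines are 95% intervals. All 29 lines lie between the dotted lines of a 2-fold change, and all 29 cross 0. Mei4 was under the filter and has no point.

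The synaptonemal complex was among the most abundant parts of the set. SYCP1 forms the transverse filaments that bridge the homologous axes, and its RNA was at 74.5 FPKM in mutant 1 and 61.9 in mutant 2, and at 52.0 in control 1 and 74.55 in control 2. The groups overlapped, the highest mutant and the highest control sample being level. Syce1, which encodes a protein of the central element, was the most abundant of the 30 genes, at 246 and 252 FPKM in mutants 1 and 2 and 242 and 212 in controls 1 and 2. Both mutant samples were above both controls by a margin smaller than the gap between the controls (log2 fold change 0.13, interval -0.28 to 0.55). Syce2, another central element protein, gave the widest gap between mutant samples, at 75.8 FPKM in mutant 1 and 129 in mutant 2, with 76.7 in control 1 and 85.7 in control 2. Mutant 2 was above the other three samples, and mutant 1 was level with the lower control. The log2 fold change of Syce2 was 0.28 (interval -0.30 to 0.86, adjusted p = 0.9999 from limma), and it was 0.66 without mutant 1 (adjusted p = 0.130) and -0.10 without mutant 2. Tex12, whose product binds SYCE2 in the central element, was at 23.9 and 20.7 FPKM in mutants 1 and 2 and at 16.4 and 21.9 in controls 1 and 2, and its groups overlapped. Syce3, the other central element gene of the set, is listed in the tables under its earlier name 1700007E06Rik, which lies outside the rule that chose the genes. That entry was at 116 and 124 FPKM in mutants 1 and 2 and at 161 and 135 in controls 1 and 2. Both mutant samples lay below both controls, and the difference did not pass the test (log2 fold change -0.30, interval -0.70 to 0.11, adjusted p = 0.917 from limma).

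Axis proteins form the lateral elements to which the chromatin loops are anchored. Sycp3, the standard marker of the axis in chromosome spreads, was at 203 FPKM in mutant 1 and 152 in both mutant 2 and control 1, with 177 in control 2. Its partner Sycp2 was at 75.2 and 63.8 FPKM in mutants 1 and 2 and at 60.5 and 69.0 in controls 1 and 2. In both genes mutant 1 was highest and control 2 next, so each genotype had a high and a low sample. HORMAD1 and HORMAD2 mark axes that have not yet synapsed. Hormad1 was at 34.9 and 25.7 FPKM in mutants 1 and 2 and at 24.0 and 32.8 in controls 1 and 2, and Hormad2 kept the same order of samples at a lower level, between 7.95 FPKM in control 1 and 11.9 in mutant 1. Trip13, the ATPase that removes HORMAD proteins from synapsed axes, was at 7.63 and 7.17 FPKM in mutants 1 and 2 and at 5.62 and 7.08 in controls 1 and 2. Both of its mutant samples were above both controls, although mutant 2 and control 2 differed by less than the width of either Cufflinks interval. The log2 fold changes of the 5 axis genes ran from 0.09 to 0.20, with intervals between -0.42 and 0.72.

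Cohesin holds sister chromatids together, and in meiosis several of its subunits are replaced by forms found in germ cells. The meiotic SMC subunit Smc1b had the largest positive log2 fold change of the set, from 77.5 and 78.4 FPKM in mutants 1 and 2 (77.9 ± 0.578, SD, n = 2) and 57.6 and 69.7 in controls 1 and 2 (63.7 ± 8.56, SD, n = 2). Both mutant samples were above both controls. The difference of 0.29 did not pass the test (interval -0.09 to 0.68, adjusted p = 0.899 from limma), and it lay between 0.16 and 0.43 when any one sample was left out. Its SMC partner Smc3, which also serves in mitotic cohesin and so is expressed in every dividing cell, was at 19.2 and 19.5 FPKM in mutants 1 and 2 and at 16.2 and 19.9 in controls 1 and 2. Rec8, a meiotic kleisin that closes the cohesin ring, was at 28.7 FPKM in mutant 1 and 42.2 in mutant 2, and at 39.4 in control 1 and 33.5 in control 2. Mutant 1 was lowest and mutant 2 highest for Rec8, and its log2 fold change of -0.06 became 0.21 without mutant 1. The other meiotic kleisin, Rad21l, was far less abundant, at 2.36 and 1.82 FPKM in mutants 1 and 2 and at 1.27 and 2.45 in controls 1 and 2. Fewer fragments lay behind Rad21l than behind most of the set, between 53 and 108 per sample, and its 2 controls differed 1.92-fold. Stag3, the meiotic stromal antigen subunit, was steady, at 124 and 120 FPKM in mutants 1 and 2 and at 127 and 131 in controls 1 and 2. Both mutant samples of Stag3 were below both controls, at 0.947 times the control mean (log2 fold change -0.08, interval -0.45 to 0.29).

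Break formation starts with PRDM9, a histone H3 methyltransferase that marks the sites to be cut. Prdm9 was at 4.03 and 3.47 FPKM in mutants 1 and 2 and at 2.79 and 3.79 in controls 1 and 2. Spo11, which encodes the enzyme that makes the cut, was at 26.9 and 17.0 FPKM in mutants 1 and 2 and at 29.7 and 20.2 in controls 1 and 2. For Spo11, mutant 1 and control 1 were the high samples, so it broke the order of samples seen in most of the set. Its log2 fold change was -0.19 (interval -0.80 to 0.42), and was -0.51 without mutant 1 and 0.13 without mutant 2. With limma-voom on estimated fragment numbers it was -0.55. Mei1, which is needed for breaks to form, stayed between 3.03 and 3.41 FPKM in all 4 samples, with a log2 fold change of 0.03. Mei4, whose product sits on the axis as part of the break machinery, was the least abundant member and fell under the filter, at 0.302 and 0.272 FPKM in mutants 1 and 2 and at 0.207 and 0.367 in controls 1 and 2. Between 17 and 32 fragments per sample lay behind these Mei4 values, and its groups overlapped.

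The strand exchange genes ranged in level from 1.66 FPKM for Mnd1 to 144 FPKM for Psmc3ip, as means of the 4 samples. Dmc1, the meiotic recombinase that coats the resected ends, was at 12.1 and 7.89 FPKM in mutants 1 and 2 and at 6.63 and 10.02 in controls 1 and 2. Samples of the same genotype differed 1.53-fold and 1.51-fold, and the groups overlapped (log2 fold change 0.23, interval -0.40 to 0.87). PSMC3IP and MND1 act as a pair that stimulates the recombinase, yet their RNA levels were far apart. Psmc3ip was at 157 and 153 FPKM in mutants 1 and 2 and at 147 and 118 in controls 1 and 2. Mnd1 was at 2.17 and 1.66 FPKM in mutants 1 and 2 and at 1.23 and 1.57 in controls 1 and 2, with between 24 and 44 fragments per sample. For both genes the mutant samples were above the controls, with log2 fold changes of 0.23 and 0.28 that did not pass the test. BRCA2 loads recombinases onto single-stranded DNA and works in all dividing cells, and Brca2 was at 8.07 and 6.70 FPKM in mutants 1 and 2 and at 6.12 and 9.23 in controls 1 and 2. Spata22, which encodes a binder of the single-stranded intermediate, stayed between 13.1 FPKM in control 1 and 17.1 in mutant 1.

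Tex15, which is needed for recombinases to assemble at breaks, had the largest negative log2 fold change and the lowest adjusted p of the set. It was at 10.5 and 9.86 FPKM in mutants 1 and 2 (10.2 ± 0.459, SD, n = 2) and at 11.5 and 16.2 in controls 1 and 2 (13.8 ± 3.31, SD, n = 2). Both mutant samples were below both controls, with control 1 closer to the mutants than to control 2. The log2 fold change of -0.39 did not pass the test (interval -0.89 to 0.11, adjusted p = 0.872 from limma). It ran from -0.62 without control 1 to -0.16 without control 2, and was -0.43 without mutant 1. On the NCBIM37 (mm9) assembly, Tex15 lies at chr8:34627210-34696054 on the plus strand and Smc1b, at the other end of the range, at chr15:84895121-84962387 on the minus strand.

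Crossover genes were of moderate level, averaging between 5.53 and 12.9 FPKM over the 4 samples. MSH4 and MSH5 form a clamp that stabilises recombination intermediates. Msh4 was at 6.43 and 5.18 FPKM in mutants 1 and 2 and at 5.07 and 5.46 in controls 1 and 2, and Msh5 at 9.25 and 7.53 against 7.17 and 7.42. Both Msh5 mutant samples were above both controls, mutant 2 by a small margin. The log2 fold change of Msh5 was 0.17 in limma and 0.57 with limma-voom on estimated fragment numbers. Mlh3, which encodes a mismatch repair family protein needed for crossovers to mature, was at 10.6 and 8.72 FPKM in mutants 1 and 2 and at 8.53 and 10.8 in controls 1 and 2. Its mutant mean was 0.999 times its control mean. Hfm1, a DNA helicase of the same step, was at 15.0 and 11.8 FPKM in mutants 1 and 2 and at 10.9 and 14.0 in controls 1 and 2. Ccnb1ip1, also called HEI10, a ring-finger protein that limits the number of crossover sites, was at 9.09 and 6.63 FPKM in mutants 1 and 2 and at 6.31 and 8.82 in controls 1 and 2. In Mlh3, Hfm1 and Ccnb1ip1 the high samples were again mutant 1 and control 2. Tex11, an X-linked gene whose product joins synapsis to crossover formation, had the widest gap between controls, at 4.52 and 8.94 FPKM in controls 1 and 2, with 6.73 and 4.83 in mutants 1 and 2. Its log2 fold change of -0.14 (interval -0.87 to 0.58) was 0.28 without control 2 and -0.34 without mutant 1. Rnf212, the remaining crossover gene of the set, has no value here.

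**Figure D2:**
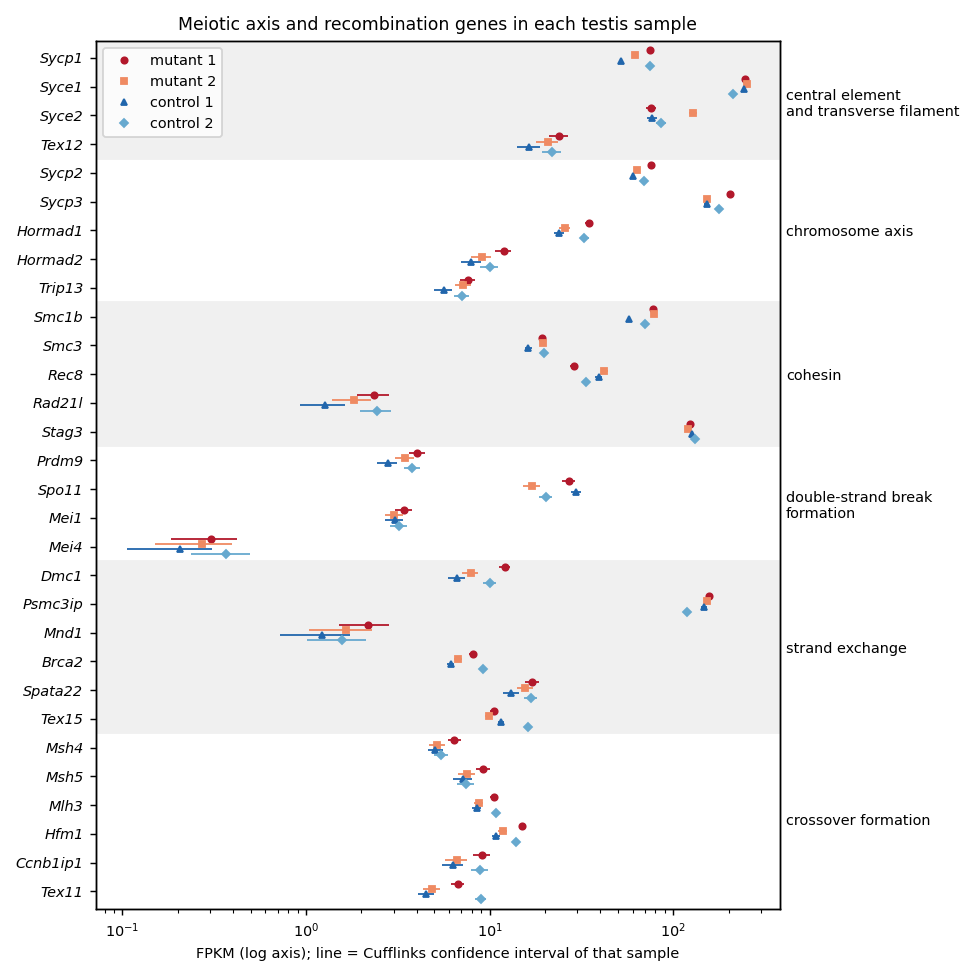
FPKM of the 30 listed genes on a log axis, with genes grouped by role on the vertical axis. Each symbol is 1 sample (mutant 1, mutant 2, control 1, control 2) and each line its Cufflinks confidence interval. Levels run from under 0.4 FPKM for Mei4 to over 200 FPKM for Syce1, and within most genes the red circle of mutant 1 and the light blue diamond of control 2 lie to the right of the other sample of their genotype.

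Levels lay on both sides of the median of the genes tested, with a group of them near the top. Of the 29 genes tested, 18 were above the median of all genes tested (9.44 FPKM), 10 were above the 75th percentile (25.7 FPKM) and 8 were above the 90th percentile (63.0 FPKM). These 8 were Sycp1, Syce1, Syce2, Sycp2, Sycp3, Smc1b, Stag3 and Psmc3ip, which are proteins of the complex, the axis and cohesin with a single recombinase cofactor. Every listed gene of the break and crossover groups was below that level.

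Samples of the same genotype differed in a shared order over most of the 30 genes. Mutant 1 was above mutant 2 in 25 of 30 genes, control 2 was above control 1 in 26 of 30, and both held in 23 of 30. Over all genes tested these shares were 68.1%, 59% and 46.9%. After median-ratio scaling of the samples the counts were 20, 22 and 16 of 30, and the shares of all genes 49.2%, 43.9% and 29%. The median log2 difference of the 29 genes tested was 0.24 between the mutants and 0.29 between the controls, beside 0.12 and 0.08 over all genes. With the same scaling these medians were 0.11 and 0.15 for the meiotic genes and -0.0045 and -0.05 for all genes. The Cufflinks intervals of same-genotype samples did not touch in 16 of 30 genes for the mutants and 22 of 30 for the controls, and in 49.9% and 52.9% of all genes. These counts are descriptions, since the genes share their libraries and are not independent of each other.

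After median-ratio scaling both parts of this order held in only 16 of 30 genes. On unscaled FPKM, exceptions were few. Syce1, Syce2, Smc1b, Smc3 and Rec8 were not higher in mutant 1 than in mutant 2, and Syce1, Rec8, Spo11 and Psmc3ip were not higher in control 2 than in control 1. Syce1 and Rec8 thus differed from the order in both genotypes. For Syce1, Smc1b and Smc3 the Cufflinks intervals of the mutants overlapped, so their mutant samples were near level. In absolute size the median log2 difference of the 29 genes was 0.25 between the mutants and 0.31 between the controls, beside 0.21 and 0.22 over all genes. Between genotypes it was 0.13 for the set and 0.13 for all genes, and as a difference of means of 2 samples it tends to be smaller than one of single samples where no gene changes.

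**Figure D3:**
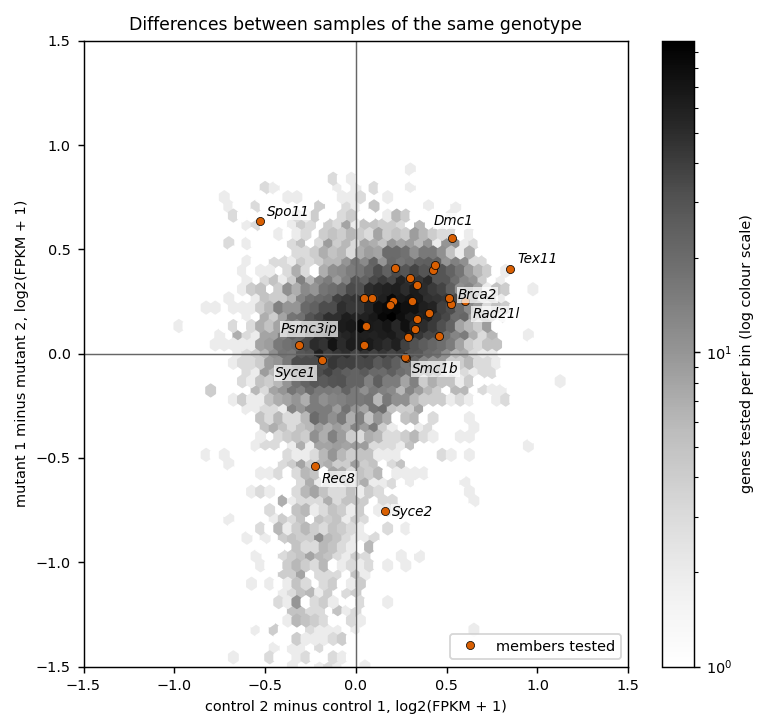
Difference between the controls (control 2 minus control 1, horizontal axis) and between the mutants (mutant 1 minus mutant 2, vertical axis), both on log2(FPKM + 1). Grey bins count all genes tested on a log colour scale, within the range drawn, and orange points are the 29 meiotic genes, most of which lie in the upper right. Syce2 and Rec8 lie below 0 on the vertical axis and Spo11 lies to the upper left.

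Marker genes of the testis cell types were read in the same samples. The most abundant genes of a list weigh most in its summed FPKM. Spermatogonial markers (8 genes) summed to 105.6 FPKM in mutant 1, 81.3 in mutant 2, 73.5 in control 1 and 104 in control 2. Sertoli cell markers (9 genes) summed to 698, 612, 466 and 641 FPKM in the same order. Both lists were higher in mutant 1 than in mutant 2 and higher in control 2 than in control 1, as most of the meiotic genes were. Pachytene spermatocyte markers (10 genes) summed to 5000, 5077, 5487 and 4577 FPKM, with control 1 above control 2. Round spermatid markers (10 genes) summed to 2156, 2707, 2598 and 2156 FPKM, and Leydig cell markers (8 genes) to 471, 255, 403 and 153 FPKM. Markers of peritubular myoid cells (5 genes) summed to between 77.0 FPKM in control 1 and 108.5 in control 2, and those of macrophages (6 genes) to between 9.71 and 13.8 FPKM. The 30 meiotic genes summed to 1303 FPKM in mutant 1, 1246 in mutant 2, 1143 in control 1 and 1202 in control 2. Relative to the controls, their median log2 difference was 0.24 in mutant 1 and -0.01 in mutant 2, against 0.10 and -0.03 for all genes tested. No listed marker was at 0 in any sample, so RNA of each of these lists was detected in all 4. The part of cell makeup in the sample order of the meiotic genes was not tested.

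**Figure D4:**
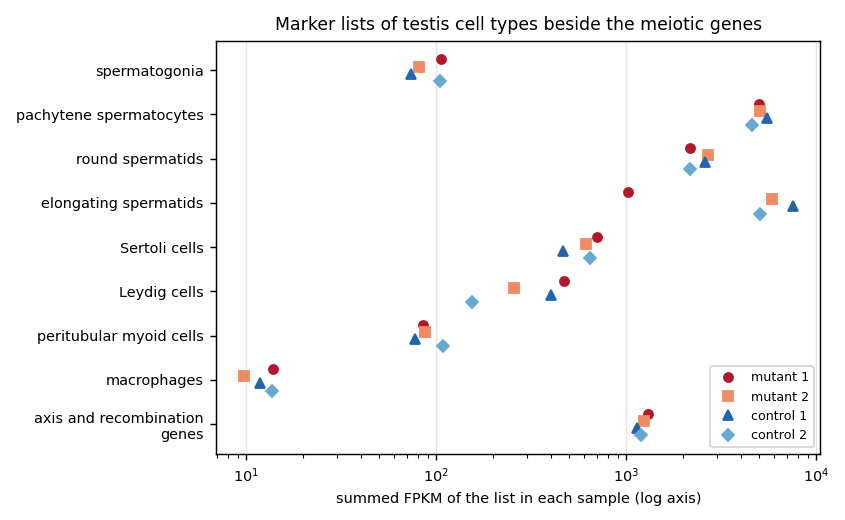
Summed FPKM of each marker list in each sample on a log axis, with the summed FPKM of the meiotic genes in the bottom row. Symbols are single samples, 2 per genotype. The meiotic genes lie between 1143 and 1303 in all 4 samples, while the elongating spermatid markers are at 1026 in mutant 1 and at 5033 or more in the other samples.

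Other genes of meiotic prophase were read in the same way. A list of 59 further genes, from telomere attachment, synapsis, cohesin, break formation and repair, with some regulatory genes, was matched for 55, all of which were tested. Cohesin and repair genes of this list include some that are not particular to meiosis. None of the 55 was called by limma or by limma-voom in either direction. In limma 2.83% of all genes tested were called, so a count of 0 is near the background. An unadjusted p under 0.05 in limma was found for 1 of the 55, against 8.69% of all genes. Their median log2 fold change was 0.04, with 32 above 0 and 23 below, against 57.3% above 0 over all genes. Without mutant 1 these counts were 19 and 36, against 44.2% above 0. All 55 intervals lay inside a 2-fold change, against 87% of all genes. H2afx, the histone variant phosphorylated around DNA breaks, was the one with an unadjusted p under 0.05, at 76.5 and 63.0 FPKM in mutants 1 and 2 and at 53.2 and 49.2 in controls 1 and 2. Both of its mutant samples were above both controls (log2 fold change 0.43, adjusted p = 0.458 from limma). Mre11a, a nuclease that resects broken ends, had the next largest difference at 0.34. At the lower end were Nipbl, which loads cohesin, at -0.25, and 6030422M02Rik, the earlier name of Mcmdc2, which is needed for strand exchange, at -0.24. In these 55 genes mutant 1 was above mutant 2 in 46 and control 2 above control 1 in 45, the order seen in the set itself. Over all genes tested these shares were 68.1% and 59%. After median-ratio scaling the counts were 37 and 39 of 55, and the shares of all genes 49.2% and 43.9%.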

How the data were processed

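For each sample the authors deposited 1 table with the FPKM of each gene and the bounds of its confidence interval. Per the labels and methods, reads were aligned to mm9 with TopHat2 2.0.6 and FPKM were estimated with Cufflinks. The tables show no scaling between samples. Entries sharing a symbol were summed. A pseudocount of 1 was added, the log2 was taken, and fold changes are on this scale, which understates changes of low genes. Genes that reached an FPKM of 1 in 2 or more samples were fitted in limma 3.58.1 under R 4.3.3 (lmFit, eBayes with a trend), mutant 1 and 2 against control 1 and 2. Tests were two-sided, p-values were adjusted by Benjamini-Hochberg over all genes fitted, and the threshold was 0.05. The script was checked on simulated data. The genes named are all 32 of the set, Rfx2, and the 2 lowest and 2 highest log2 fold changes of the other meiotic genes. The set, lists and motifs were chosen with earlier results of these data known. Older symbols were matched only where RefSeq lists them. Fragment numbers were computed from the width of the confidence intervals and are estimates. Gene positions are from GENCODE on NCBIM37. Alternatives were 2 smaller pseudocounts, other filters, scalings and variance models, a replicate block, limma-voom and each sample left out. The output of Cuffdiff was not used here.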

Additional observations from a re-analysis of the deposited data

How the results depend on the processing

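Neither the count of 0 meiotic genes lower nor that of 0 higher changed under any of the 16 alternatives, the fit without mutant 1 included, and the same held for the other meiotic genes tested in each. The count called among all genes did change, from 327 lower and 40 higher to 206 and 16 with median-ratio scaling, 199 and 17 without a filter, 202 and 17 with a filter at 5 FPKM, 427 and 67 with robust eBayes, 167 and 17 without control 1, 213 and 13 without control 2, 433 and 162 without mutant 1 and 948 and 102 without mutant 2. Samples with the same number in the labels did not deviate together (correlation of deviations -0.154). With 2 samples per genotype, this correlation cannot show whether the numbers pair the samples. With a replicate block on those numbers 0 meiotic genes were called, among 525 lower and 70 higher of all genes, and the median log2 fold change of the set was 0.11. With the crossed block, chosen after seeing the data, the counts were 0, 266 and 28. Signs of single genes were less stable. The log2 fold change of Mlh3 was -0.017 with median-ratio scaling, and those of Rec8 and Brca2 were 0.0002 and 0.0057 with quantile normalization, each the opposite sign of the value given above, and the other 26 kept their sign in every alternative with all 4 samples. In size, limma-voom moved Spo11 from -0.19 to -0.55, Msh5 from 0.17 to 0.57 and Mnd1 from 0.28 to 0.48, and a pseudocount of 0.01 moved Mnd1 to 0.45. The fragment numbers given to limma-voom are estimates from interval width and need not follow FPKM alike in each sample. Spo11 had 644 fragments at 26.9 FPKM in mutant 1 and 990 at 29.7 FPKM in control 1. The part of this conversion in the limma-voom values was not tested. With each sample left out in turn, 19 genes crossed 0, with lowest and highest values of Sycp1 -0.13 to 0.38, Syce2 -0.096 to 0.66, Sycp2 -0.017 to 0.22, Sycp3 -0.11 to 0.30, Hormad1 -0.13 to 0.31, Smc3 -0.035 to 0.24, Rec8 -0.33 to 0.21, Rad21l -0.16 to 0.44, Prdm9 -0.015 to 0.32, Spo11 -0.51 to 0.13, Mei1 -0.034 to 0.097, Dmc1 -0.044 to 0.51, Brca2 -0.29 to 0.23, Spata22 -0.031 to 0.30, Msh4 -0.020 to 0.25, Mlh3 -0.15 to 0.15, Hfm1 -0.068 to 0.27, Ccnb1ip1 -0.16 to 0.26 and Tex11 -0.56 to 0.28. The adjusted p of all these values was above 0.05. With 2 samples per genotype, a fit rests on 2 residual degrees of freedom and the trend across genes, and leaving out a sample assumes that the lone sample varies like the other genotype. Differences inside the intervals given could not be resolved, and Mei4, Mnd1 and Rad21l rest on the fewest fragments.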
